A study of Mus musculus with 9 samples.

Results

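The 10 genes described here encode enzymes that hydroxylate collagen chains in the endoplasmic reticulum and crosslink collagen and elastin outside the cell. They were chosen by name from the 52780 deposited genes and comprise 5 lysyl oxidases (Lox, Loxl1, Loxl2, Loxl3 and Loxl4), 3 lysyl hydroxylases (Plod1, Plod2 and Plod3) and 2 alpha subunits of collagen prolyl 4-hydroxylase (P4ha1 and P4ha2). All 10 passed the filter on low counts and were among the 19545 genes tested. Polyadenylated RNA was sequenced from cultures of C2C12, an immortal mouse myoblast line that forms myotubes when serum is withdrawn, collected on day 4 of differentiation. The series holds 9 samples in 3 groups of 3, and every sample received 10 nM siRNA by repeated transfection, before the change of medium and during differentiation. The si Ctrl samples carry the genotype label wild type, the si mH2A1.1 samples were depleted of the histone variant splice isoform macroH2A1.1, and the si mH2A1.2 samples were depleted of macroH2A1.2. The study describes the samples of a group as independent biological replicates, and p-values measure the spread between them. C2C12 is a single line, myotube cultures of it also hold cells that have not fused, and for either isoform 1 siRNA condition was sequenced.

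Fibrillar collagen is modified in steps. In the endoplasmic reticulum, prolyl 4-hydroxylase, a tetramer of alpha subunits with protein disulfide isomerase, hydroxylates proline residues, which stabilises the triple helix, and the lysyl hydroxylases hydroxylate lysine residues. After secretion the lysyl oxidases, which need copper, oxidise lysine and hydroxylysine residues to aldehydes that condense into crosslinks. The hydroxylases need oxygen, iron and 2-oxoglutarate, and several of the genes belong to the transcriptional response to low oxygen. Myoblasts, fibroblasts and the connective tissue around muscle fibres make this matrix.

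Counts per sample summed to between 36924252 and 42223108, so counting error was small for the 10 genes, and precision was limited by the 3 samples per group. H2afy, the gene of both macroH2A1 isoforms, was at 59.9 ± 3.18 CPM (counts scaled to the TMM library size, SD, n = 3) in si Ctrl, 33.3 ± 4.87 in si mH2A1.1 and 45.7 ± 2.20 in si mH2A1.2. The log2 fold change against si Ctrl was -0.85 (SE 0.11, edgeR adjusted p = 0.00331) in si mH2A1.1 and -0.39 (SE 0.11, edgeR adjusted p = 0.108) in si mH2A1.2, and a gene-level table cannot show which isoform fell. On the first principal component of all tested genes si mH2A1.1 replicate 1 lay farthest out, at 82.5 against 38.4 and 59.1 for its group. Myotube markers were abundant in every sample, with 14 genes summing to between 13506 and 22096 CPM. The sums were 0.272 to 1.55 CPM for 4 adipocyte markers and 3.59 to 12.4 CPM for 6 of endothelium and leukocytes. The last sum was highest in si mH2A1.1, where Cd68 had a mean of 9.14 CPM against 2.98 in si Ctrl. Cd68 was the 1 gene of the 3 tested in that list to pass with si mH2A1.1, and 1 of the 3 had a negative log2 fold change. Summed over 8 genes, fibroblast markers ran from 323 to 425 CPM in si Ctrl, 242 to 501 in si mH2A1.1 and 570.1 to 623 in si mH2A1.2. Tcf21 was at 3 counts or fewer in every sample. Dcn alone made up most of that sum, at means of 329, 342 and 519 CPM in the same order, and passed in no comparison in edgeR. With si mH2A1.1 1 of 7 tested markers was lower, Lum, and 1 higher, Clec3b. With si mH2A1.2 1 was higher, Dpt, and none lower. Between the knockdowns 3 of 7 tested fibroblast markers were lower in si mH2A1.1 and none higher. The 8 cycling markers summed to between 318 and 501 CPM in si Ctrl, 448 and 959.7 in si mH2A1.1 and 249 and 365 in si mH2A1.2, and all 8 were higher in si mH2A1.1 than in si mH2A1.2. Of the myotube markers 7 of 14 were higher and 2 lower in that comparison, and of 8 markers of reserve myoblasts 3 were higher and 4 lower. In bulk RNA, fewer cells of a type and less RNA per cell cannot be told apart, and the part of these markers in the results below was not tested.

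The genes lie on 9 chromosomes of mm10, and the coordinates here are those of GENCODE M21. The 5 lysyl oxidases lie apart from each other, with Loxl1 at chr9:58287738-58313186 on the minus strand, Loxl2 at chr14:69609068-69695834 on the plus strand, Loxl3 at chr6:83034173-83052562 on the plus strand and Loxl4 at chr19:42593982-42612813 on the minus strand. Plod1 lies at chr4:147909753-147936767 on the minus strand, Plod2 at chr9:92542223-92608428 on the plus strand and Plod3 at chr5:136987019-136996648 on the plus strand. P4ha1 lies at chr10:59323296-59373304 and P4ha2 at chr11:54100095-54131665, both on the plus strand. Loxl3 shares 535 exonic bases (11.6% of its exons) with Htra2 and Plod3 shares 529 (11.7%) with Znhit1, in both cases on the opposite strand. Whether counting used strand is not given in the sources used here, so reads in these stretches are uncertain. Against si Ctrl, the log2 fold changes of Htra2 (-0.08 in si mH2A1.1, -0.15 in si mH2A1.2) and Znhit1 (0.10 and -0.09 in the same order) did not pass the test.

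Promoter windows of RefSeq (GRCm38.p6, 250 bases before to 50 after the start) were searched for 5 of the 10 genes: P4ha1, P4ha2, Plod1, Plod3 and Loxl4. The 4 windows of the hydroxylases are printed because the levels of P4ha1, P4ha2 and Plod2 followed the genes of the low-oxygen response from sample to sample while Plod3 did not, as described further on. Plod2 itself was not among the 5 genes searched, and a link between matches and levels was not tested. Capitals mark the core letters of the hypoxia response element, ACGTG or GCGTG, searched on both strands, so that a match on the reverse strand reads CACGT or CACGC. The windows are chr10:59323046-59323345 on the plus strand for P4ha1, chr11:54100674-54100973 on the plus strand for P4ha2, chr4:147936727-147937026 on the minus strand for Plod1 and chr5:136986769-136987068 on the plus strand for Plod3.
P4ha1: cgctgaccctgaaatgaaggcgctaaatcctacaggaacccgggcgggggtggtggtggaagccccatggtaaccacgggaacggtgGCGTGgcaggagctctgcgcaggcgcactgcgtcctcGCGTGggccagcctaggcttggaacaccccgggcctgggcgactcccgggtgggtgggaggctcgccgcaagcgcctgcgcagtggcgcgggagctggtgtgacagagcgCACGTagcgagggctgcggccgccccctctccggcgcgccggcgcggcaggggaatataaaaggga
P4ha2: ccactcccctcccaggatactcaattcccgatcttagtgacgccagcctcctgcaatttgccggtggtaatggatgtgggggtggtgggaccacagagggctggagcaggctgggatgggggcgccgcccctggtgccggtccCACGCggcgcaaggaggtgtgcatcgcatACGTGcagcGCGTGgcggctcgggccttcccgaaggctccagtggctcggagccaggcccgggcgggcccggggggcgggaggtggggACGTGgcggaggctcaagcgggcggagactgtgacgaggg
Plod1: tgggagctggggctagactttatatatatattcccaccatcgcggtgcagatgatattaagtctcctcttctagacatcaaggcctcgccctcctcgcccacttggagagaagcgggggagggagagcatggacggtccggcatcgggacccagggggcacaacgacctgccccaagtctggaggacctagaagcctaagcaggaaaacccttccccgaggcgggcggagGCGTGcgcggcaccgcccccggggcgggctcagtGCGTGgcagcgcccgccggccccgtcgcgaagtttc
Plod3: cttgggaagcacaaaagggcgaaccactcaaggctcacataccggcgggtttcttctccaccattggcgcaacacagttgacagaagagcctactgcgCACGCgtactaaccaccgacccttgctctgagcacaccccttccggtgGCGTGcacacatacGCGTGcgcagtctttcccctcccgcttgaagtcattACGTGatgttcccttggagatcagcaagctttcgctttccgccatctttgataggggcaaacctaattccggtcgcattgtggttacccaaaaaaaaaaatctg
The core was found 3 times in the P4ha1 window, 4 times in that of P4ha2, 2 times in that of Plod1 and 4 times in that of Plod3, and 1 time in that of Loxl4 at chr19:42612757-42613056 on the minus strand. All 5 windows thus held it, as did 43.8% of all 32851 RefSeq windows of this length. The 5 windows were between 53.3% (Plod3) and 75% (Loxl4) G or C, and the share over all windows was not matched for this. The P4ha2 window lies inside the span that GENCODE gives the gene. The E-box CACGTG contains the core, so the letters overlap with the motif of other factors. On both strands, the GC box GGGCGG was in the windows of Loxl4, Plod1, P4ha1 and P4ha2 and not in that of Plod3, against 35.7% of all windows. The SMAD box CAGAC was in those of Loxl4 and Plod1, against 49.6% of all windows. Such matches are letters in a window and do not show that a factor binds there.

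In si Ctrl myotubes, levels per kb of exon spanned from 3.75 ± 0.663 CPM per kb for Loxl4 to 104 ± 26.5 for Lox (SD, n = 3). Lox and P4ha1 (97.2 ± 5.00 CPM per kb) led, and their samples overlapped. Plod2 followed at 59.0 ± 5.69 CPM per kb, then Loxl1 at 44.5 ± 7.85 and P4ha2 at 40.9 ± 3.44, whose samples also overlapped. Below them came Plod3 at 27.8 ± 1.03, Plod1 at 19.8 ± 0.523, Loxl2 at 15.4 ± 1.43 and Loxl3 at 6.94 ± 0.815 CPM per kb. Apart from the pairs of Lox with P4ha1 and of Loxl1 with P4ha2, no neighbours in this order overlapped. These levels depend on the exon length used, since per kb of the longest transcript the ratio of P4ha1 to P4ha2 was 1.19 in si Ctrl against 2.38 per kb of all exons.

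**Figure D1:**
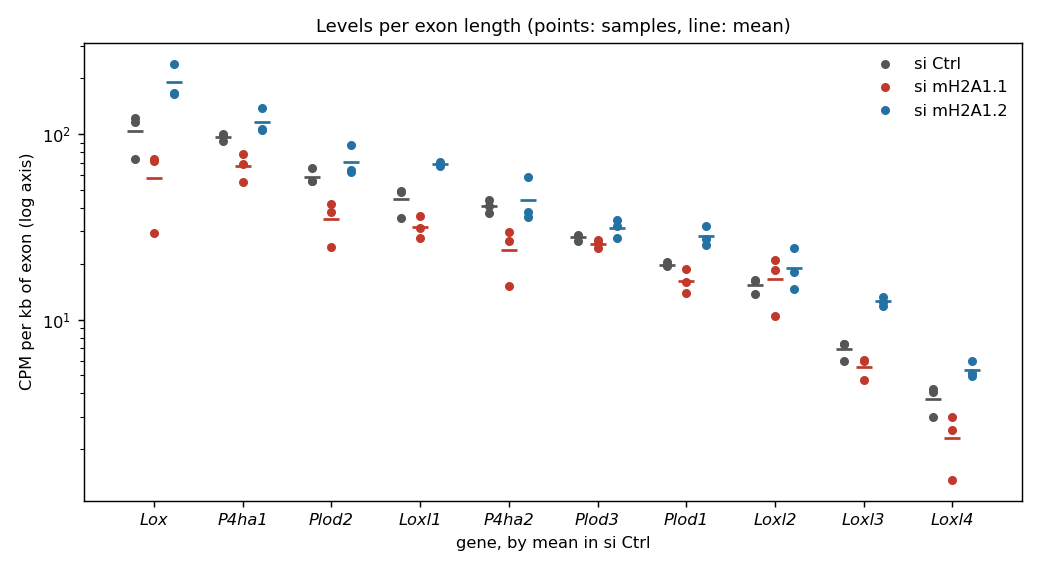
Level of each gene in CPM per kb of exon (log axis), with genes ordered by their mean in si Ctrl, one point per sample and a line at the mean of each group of 3. In si Ctrl the genes run from Lox at 104 to Loxl4 at 3.75 CPM per kb, and for every gene but Loxl2 the si mH2A1.1 mean is the lowest and the si mH2A1.2 mean the highest of the 3.

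The comparisons ask how loss of either isoform changed the genes, and how the isoforms differ. Between the knockdowns 8 of the 10 genes were lower in si mH2A1.1 than in si mH2A1.2 and none was higher, the exceptions being Loxl2 and Plod3. Of all tested genes 10.5% were lower and 12.0% higher by the same rule, an edgeR adjusted p of at most 0.05. Every si mH2A1.1 sample was below every si mH2A1.2 sample for 9 of the 10, all but Loxl2, as for 19.4% of all tested genes. Against si Ctrl fewer genes passed. With si mH2A1.1 Plod2 fell and none rose (4.93% of all genes lower, 6.18% higher), and with si mH2A1.2 Loxl1 and Loxl3 rose and none fell (1.37% of all genes higher, 0.982% lower). Under a stricter rule (edgeR adjusted p below 0.01, change of 0.8 or more in size on the log2 scale) 5 genes differed between the knockdowns (6.38% of all genes). They were Lox, Loxl1, Loxl3, Loxl4 and Plod2. By that rule none differed from si Ctrl with si mH2A1.1 (1.80%) or si mH2A1.2 (0.179%). The unadjusted p from edgeR was under 0.05 for 8 of the 10 genes with si mH2A1.1, all lower (14.2% of all tested genes), and for 4 with si mH2A1.2, all higher (8.18%). DESeq2 called 6 of the 10 lower with si mH2A1.1 (7.67% of the genes it tested) and 3 higher with si mH2A1.2 (3.28%) at an adjusted p of at most 0.05. The 6 were Lox, Loxl1, Loxl4, Plod2, P4ha1 and P4ha2, and the 3 were Loxl1, Loxl3 and Plod1.

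**Figure D2:**
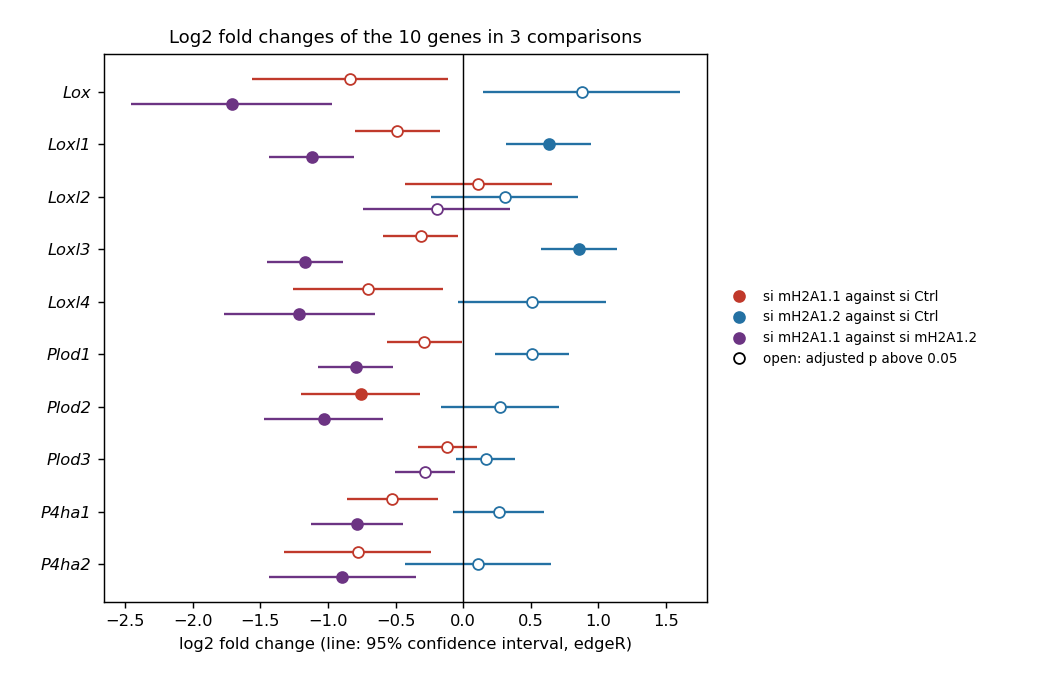
Log2 fold change of each gene in the 3 comparisons with its 95% confidence interval from edgeR, filled where the adjusted p was at most 0.05. Of the comparison between the knockdowns 8 points are filled, of the comparisons with si Ctrl 1 (Plod2, si mH2A1.1) and 2 (Loxl1 and Loxl3, si mH2A1.2).

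The means stood in the order si mH2A1.1, si Ctrl, si mH2A1.2 for 9 of the 10 genes, all but Loxl2, as for 23.6% of all tested genes. Both comparisons with si Ctrl use the same 3 control samples, so this order is not independent support from either side. All si mH2A1.1 samples were below all si Ctrl samples for 5 genes, Lox, Plod1, Plod2, P4ha1 and P4ha2 (16.7% of all tested genes). All si mH2A1.2 samples were above all si Ctrl samples for 6, Lox, Loxl1, Loxl3, Loxl4, Plod1 and P4ha1 (11.7% of all tested genes).

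**Figure D3:**
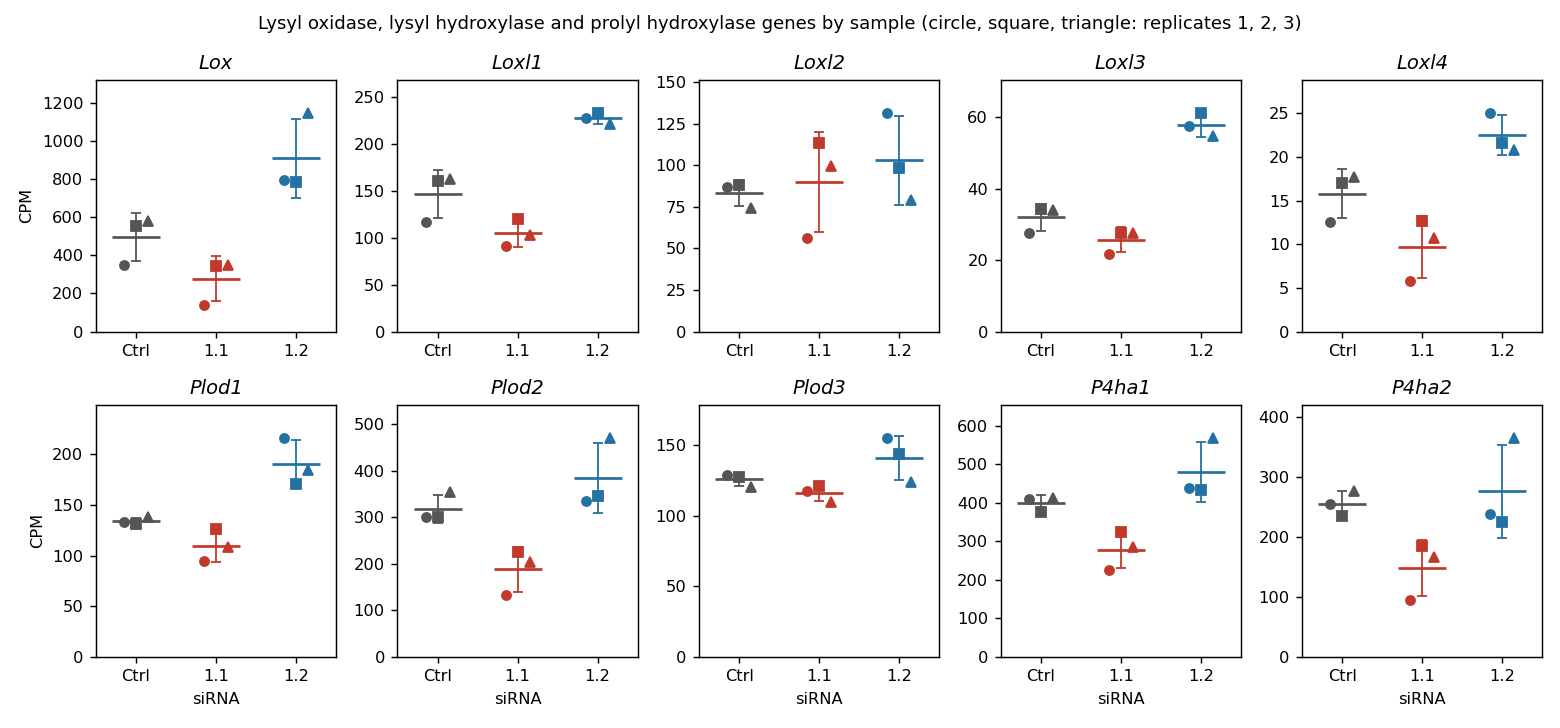
CPM of each gene in each sample by siRNA group (Ctrl, 1.1 and 1.2), with circle, square and triangle for replicates 1, 2 and 3 and a line and bar for mean and SD, each panel from 0 on its own scale. For 9 of the genes all si mH2A1.1 points are below all si mH2A1.2 points, and the circle of si mH2A1.1 is its lowest point for all genes but Plod3.

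Lox, the founding lysyl oxidase and the most abundant of the 5, was at 351, 554 and 583 CPM in si Ctrl replicates 1 to 3, at 139.9, 344 and 349.7 in si mH2A1.1 and at 794, 787 and 1151 in si mH2A1.2. The 3 groups did not overlap, although the lowest si Ctrl sample and the highest of si mH2A1.1 were almost level. Lox was 3.28-fold lower in si mH2A1.1 than in si mH2A1.2 (log2 fold change -1.71, SE 0.33, edgeR adjusted p = 0.0064). Against si Ctrl its log2 fold change was -0.84 (SE 0.33, edgeR adjusted p = 0.119) with si mH2A1.1 and 0.88 (SE 0.33, edgeR adjusted p = 0.219) with si mH2A1.2. With the replicate number as a block, a pairing that the labels do not state, Lox passed against si Ctrl on both sides. In that fit its log2 fold change was -0.89 (edgeR adjusted p = 0.0199) with si mH2A1.1 and 0.91 (edgeR adjusted p = 0.0441) with si mH2A1.2.

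Loxl1, which acts on elastin, was at 117, 160.2 and 163 CPM in si Ctrl, 91.4, 119.8 and 103 in si mH2A1.1 and 228, 234 and 222 in si mH2A1.2. The si mH2A1.2 samples lay above all others and close together, and the other groups overlapped by 1 sample each. Loxl1 rose 1.55-fold with si mH2A1.2 (log2 fold change 0.63, SE 0.14, edgeR adjusted p = 0.0489), close to the threshold, and it was 2.18-fold lower in si mH2A1.1 than in si mH2A1.2 (edgeR adjusted p = 0.000834). Relative to si Ctrl its change was -0.49 on the log2 scale in si mH2A1.1 (SE 0.14, edgeR adjusted p = 0.0526), just above the threshold. The call with si mH2A1.2 was lost when any single library other than si mH2A1.1 replicate 1 or 2 was left out, with log2 fold changes of 0.50 to 0.71 and edgeR adjusted p of up to 0.149.

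Loxl3, a lysyl oxidase of skeletal and muscle attachment development, was at 27.6, 34.2 and 34.1 CPM in si Ctrl, 21.7, 27.7 and 27.7 in si mH2A1.1 and 57.6, 61.3 and 54.8 in si mH2A1.2. Every si mH2A1.2 sample exceeded every other, and the highest si mH2A1.1 value was level with the lowest of si Ctrl. Its rise of 1.81-fold with si mH2A1.2 was the firmest change of the 10 against si Ctrl (log2 fold change 0.86, SE 0.13, edgeR adjusted p = 0.0132). Leaving out 1 library at a time, the call was lost without si Ctrl replicate 1 or si mH2A1.2 replicate 2, at log2 fold changes of 0.76 and 0.81 and edgeR adjusted p of 0.0539 and 0.0565. Between the knockdowns Loxl3 was 2.25-fold lower in si mH2A1.1 (edgeR adjusted p = 0.000414), and with si mH2A1.1 alone its log2 fold change was -0.31 (SE 0.13, edgeR adjusted p = 0.126).

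Loxl4 was the least abundant, at 12.6, 17.1 and 17.8 CPM in si Ctrl, 5.75, 12.6 and 10.7 in si mH2A1.1 and 25.1, 21.6 and 20.8 in si mH2A1.2. The si mH2A1.2 samples were again the highest, while si mH2A1.1 and si Ctrl met at 12.6 CPM. It was 2.32-fold lower in si mH2A1.1 than in si mH2A1.2 (log2 fold change -1.21, SE 0.25, edgeR adjusted p = 0.00825), with -0.70 (edgeR adjusted p = 0.0932) and 0.51 (edgeR adjusted p = 0.354) against si Ctrl for si mH2A1.1 and si mH2A1.2.

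Loxl2, known for crosslinking collagen IV of basement membranes, was the member that stood apart. It was at 87.0, 88.3 and 74.3 CPM in si Ctrl, 56.3, 114 and 99.7 in si mH2A1.1 and 132, 98.1 and 79.1 in si mH2A1.2, so all 3 groups overlapped. The log2 fold change between the knockdowns was -0.20 (95% confidence interval -0.74 to 0.35, edgeR adjusted p = 0.608), an interval that ends above the value of -1.71 for Lox. Against si Ctrl it was 0.11 (95% confidence interval -0.43 to 0.66) with si mH2A1.1 and 0.31 (95% confidence interval -0.24 to 0.85) with si mH2A1.2.

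The 5 lysyl oxidases together were at 174 ± 35.1 CPM per kb in si Ctrl, 114 ± 35.6 in si mH2A1.1 and 297 ± 37.2 in si mH2A1.2 (SD, n = 3). Loxl2 made up 14.0 to 15.2% of that sum in si mH2A1.1, 6.98 to 12.0% in si Ctrl and 4.31 to 8.75% in si mH2A1.2. Its samples in si mH2A1.1 were above all others, whereas si Ctrl and si mH2A1.2 overlapped. Lox made up 39.8 to 55.7% of the sum in si mH2A1.1, 54.8 to 62.0% in si Ctrl and 59.7 to 70.9% in si mH2A1.2, with si Ctrl overlapping both. The ratio of Lox to Loxl2 per kb was 2.81, 3.42 and 3.97 from lowest to highest in si mH2A1.1, 4.56, 7.11 and 8.88 in si Ctrl and 6.83, 9.08 and 16.5 in si mH2A1.2, with si mH2A1.1 below every other sample. The shares of Loxl1 (19.8 to 37.7% over all samples), Loxl3 (up to 6.40%) and Loxl4 (1.46 to 2.23%) overlapped between the groups. These shares and ratios are descriptions, with no test.

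Among the lysyl hydroxylases, Plod2 hydroxylates the telopeptides, the short ends of the collagen chain, and thereby sets the kind of crosslink that forms. Plod2 was at 300.1, 300.4 and 353 CPM in si Ctrl, 133, 226 and 204 in si mH2A1.1 and 336, 347 and 471 in si mH2A1.2. All si mH2A1.1 samples were below all others, and si Ctrl and si mH2A1.2 overlapped. It fell by 0.76 on the log2 scale with si mH2A1.1 (SE 0.20, 1.69-fold lower, edgeR adjusted p = 0.0368), and the change with si mH2A1.2 was 0.27 (SE 0.20, edgeR adjusted p = 0.556). Between the knockdowns it was 2.05-fold lower in si mH2A1.1 (edgeR adjusted p = 0.00602). The call against si Ctrl depended on single libraries and was lost without any one of the 3 si Ctrl samples, si mH2A1.1 replicate 1 or 3 or si mH2A1.2 replicate 2, with log2 fold changes of -0.82 to -0.56 and edgeR adjusted p of 0.0519 to 0.104.

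Plod1, which hydroxylates the helix, was at 133, 131 and 138 CPM in si Ctrl, 94.4, 126 and 109 in si mH2A1.1 and 216, 171 and 184 in si mH2A1.2. The 3 groups did not overlap, and the si Ctrl samples were tightly grouped. It was 1.74-fold lower in si mH2A1.1 than in si mH2A1.2 (log2 fold change -0.80, SE 0.12, edgeR adjusted p = 0.00224), with 0.51 (SE 0.12, edgeR adjusted p = 0.0659) for si mH2A1.2 and -0.29 (SE 0.12, edgeR adjusted p = 0.154) for si mH2A1.1 against si Ctrl. Plod3, which also transfers sugars to hydroxylysine, had the smallest SE of the 10 in each comparison (0.10). It was at 129, 128 and 120.5 CPM in si Ctrl, 117, 121 and 109.7 in si mH2A1.1 and 155, 144 and 124 in si mH2A1.2. The knockdowns did not overlap but both overlapped with si Ctrl. Its log2 fold change between them was -0.28 (95% confidence interval -0.50 to -0.06, edgeR adjusted p = 0.0678), an interval that does not reach the value of any of the 8 genes that passed. The difference between genes was not itself tested. Against si Ctrl it was -0.12 and 0.17 with si mH2A1.1 and si mH2A1.2 (edgeR adjusted p = 0.472 and 0.466).

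The ratio of Plod2 to Plod1 per kb was accordingly 1.77, 2.25 and 2.36 from lowest to highest in si mH2A1.1, below the 2.83, 2.88 and 3.22 of si Ctrl. In si mH2A1.2 it was 1.95, 2.54 and 3.20, which overlapped with both. The 3 lysyl hydroxylases together were at 107 ± 5.18 CPM per kb in si Ctrl, 76.8 ± 11.5 in si mH2A1.1 and 131 ± 10.4 in si mH2A1.2 (SD, n = 3). Plod3 made up 30.7 to 40.2% of the sum in si mH2A1.1, above its 23.7 to 27.5% in si Ctrl and 19.3 to 26.7% in si mH2A1.2.

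The prolyl hydroxylase subunits went with Plod2. P4ha1, the main alpha subunit of most cells, was at 410.0, 376 and 414 CPM in si Ctrl, 226, 323 and 285 in si mH2A1.1 and 438, 433 and 569 in si mH2A1.2. The 3 groups did not overlap. P4ha1 was 1.72-fold lower in si mH2A1.1 than in si mH2A1.2 (log2 fold change -0.79, SE 0.15, edgeR adjusted p = 0.00626), with -0.52 (SE 0.15, edgeR adjusted p = 0.0525) and 0.26 (SE 0.15, edgeR adjusted p = 0.445) against si Ctrl for si mH2A1.1 and si mH2A1.2. P4ha2, the second alpha subunit, was at 254, 234 and 277 CPM in si Ctrl, 95.3, 185 and 166 in si mH2A1.1 and 238, 225 and 366 in si mH2A1.2. All si mH2A1.1 samples were below all others, and si mH2A1.2 samples lay on both sides of si Ctrl. It was 1.86-fold lower in si mH2A1.1 than in si mH2A1.2 (log2 fold change -0.89, SE 0.25, edgeR adjusted p = 0.0266), a call lost without si mH2A1.1 replicate 1 or 3 or si mH2A1.2 replicate 3 (edgeR adjusted p of 0.0547 to 0.0917), and its log2 fold changes against si Ctrl were -0.78 (SE 0.25, edgeR adjusted p = 0.0653) and 0.11 (SE 0.24, edgeR adjusted p = 0.872).

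Within groups the genes did not all vary together. After the group means were taken off, Plod2, P4ha1 and P4ha2 followed each other across the 9 samples, with Pearson r of 0.96 between Plod2 and P4ha1, 0.98 between Plod2 and P4ha2 and 0.98 between P4ha1 and P4ha2. Other pairs were also close, such as Lox with Plod2 (0.90), Loxl1 with Loxl3 (0.88) and Loxl3 with Loxl4 (0.89). Plod3 had r of -0.54 with Plod2, -0.50 with P4ha1 and -0.52 with P4ha2. These values are descriptions over 9 libraries that share their group means and depth, and differences between replicate numbers were not taken off. In si mH2A1.2, replicate 3 was the highest for Lox, Plod2, P4ha1 and P4ha2 and the lowest for Loxl1, Loxl2, Loxl3, Loxl4 and Plod3.

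The 22 genes of the low-oxygen response, such as targets of the hypoxia-inducible factors in glycolysis and oxygen supply, moved with the same samples. As the median deviation from the group mean on the log2 scale, they stood at -0.22, -0.05 and 0.25 in si Ctrl replicates 1 to 3, -0.51, 0.26 and 0.23 in si mH2A1.1 and -0.35, -0.20 and 0.57 in si mH2A1.2. All 22 were above the group mean in si Ctrl replicate 3 and si mH2A1.2 replicate 3, and 0 in si mH2A1.1 replicate 1. By this median replicate 1 was the lowest of each group, and replicate 3 was above the group mean in each. The replicate number was not taken off, and its part in these values and in the correlations with them was not tested. Pearson r between this median and a gene's deviation was 0.96 for Plod2, 0.93 for P4ha2, 0.90 for P4ha1 and 0.88 for Lox, between 0.09 and 0.55 for Loxl1, Loxl2, Loxl3, Loxl4 and Plod1, and -0.74 for Plod3. The part of these genes in the results was not tested. Between groups, 22 of the 22 had a negative log2 fold change with si mH2A1.1 (median -0.43, against -0.01 for all tested genes), of which Pfkfb3, a regulator of glycolysis, fell by 0.83 (SE 0.20, edgeR adjusted p = 0.0268) and was the one to pass. That group value includes si mH2A1.1 replicate 1, at -0.51 from its group mean. Genes that move together in this way are not 22 separate signs. With si mH2A1.2 the median was 0.00 and none passed in edgeR or DESeq2, nor at an unadjusted p under 0.05 (0 genes). Between the knockdowns 5 were lower in si mH2A1.1, and these, named after their values were seen, were Ddit4, Ero1l, Ndrg1, Pfkfb3 and Vegfa.

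**Figure D4:**
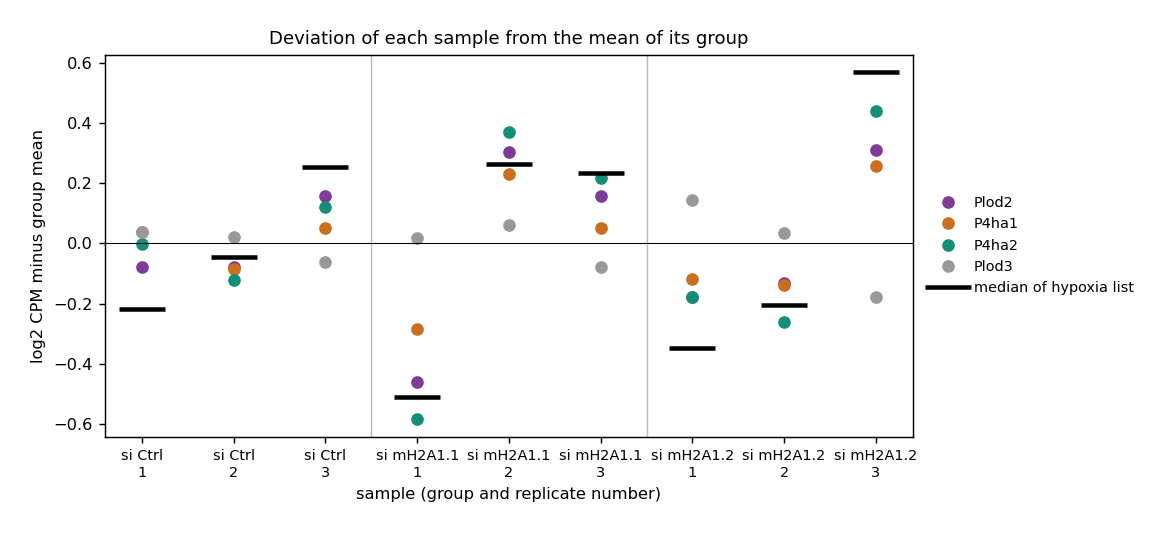
Log2 CPM minus the mean of the sample's own group, for Plod2, P4ha1, P4ha2 and Plod3 (points) and for the median of 22 genes of the low-oxygen response (bars), by sample. Points of Plod2, P4ha1 and P4ha2 lie low with the bar in si mH2A1.1 replicate 1 (bar at -0.51) and high with it in si mH2A1.2 replicate 3 (bar at 0.57), where Plod3 lies lowest of its group.

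Further genes that act on the same proteins were taken as lists. In the maturation of collagen, 23 of 25 listed genes were tested. With si mH2A1.1 5 of the 23 were lower and none higher (median log2 fold change -0.18), namely P3h2 (-0.87), a prolyl 3-hydroxylase, Sparc (-0.64), a collagen-binding glycoprotein, Slc39a13 (-0.60), a zinc transporter whose loss impairs lysyl hydroxylation, Fkbp14 (-0.51), a prolyl isomerase that binds collagen, and P3h4 (-0.40), a scaffold of lysyl hydroxylation. With si mH2A1.2 all 23 log2 fold changes were positive (median 0.39), and Fkbp14 rose by 0.42 (SE 0.09, edgeR adjusted p = 0.039) as the one gene to pass in edgeR, where 12 had an unadjusted p under 0.05, all higher. DESeq2 called 7 of the 23 higher. Creb3l1, a transcription factor of secretory and collagen genes, came next with 0.64 (edgeR adjusted p = 0.0505). Between the knockdowns 16 of the 23 were lower in si mH2A1.1 and none higher (median -0.61), against 10.5% lower of all tested genes. The largest were P3h2 at -1.26, P3h3 at -1.23, P4ha3, a further alpha subunit, at -1.22, Sparc at -1.16, Adamts2 at -1.12 and Creb3l1 at -1.06. P4hb, the partner of the alpha subunits in the tetramer, had -0.40 (edgeR adjusted p = 0.0713) and Serpinh1, the collagen chaperone, -0.54 (edgeR adjusted p = 0.0824). Colgalt1, which adds galactose to hydroxylysine, had -0.17 (edgeR adjusted p = 0.198), near the -0.28 of Plod3.

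The substrates of the enzymes spanned a wider range. Of 10 fibrillar collagen genes tested, 6 were lower and 1 higher with si mH2A1.1 (median -0.70), with Col11a1 at -3.51, Col1a1 at -2.38 and Col3a1 at -1.06, and Col27a1 higher at 1.45. With si mH2A1.2 none passed in edgeR (median 0.50, 5 higher at an unadjusted p under 0.05, 3 called by DESeq2), and between the knockdowns 6 were lower and 1 higher in si mH2A1.1 (median -1.10). Of 12 genes of elastic fibres and crosslink partners, 5 were lower and 2 higher with si mH2A1.1 (median -0.72), among them Fmod, a collagen-binding proteoglycan, at -4.43, Postn, periostin, at -2.80, Fbln5, an elastic fibre protein, at -2.01 and Fn1, fibronectin, at -1.06. The 2 that were higher, named after their values were seen, were Eln, elastin itself, at 1.13 (edgeR adjusted p = 0.0314) and Tnxb, a tenascin, at 4.96 (edgeR adjusted p = 0.00222), both low in level, with means over all samples of 0.779 and 0.99 CPM. With si mH2A1.2 4 were higher and none lower (median 0.93), Fmod at 4.81, Dpt at 1.74, Emilin1 at 0.97 and Efemp2 at 0.39. Between the knockdowns 10 were lower and 2 higher in si mH2A1.1 (median -1.71), the latter again Eln at 1.39 and Tnxb at 5.64. The medians of the 10 enzymes in the same comparisons were -0.51, 0.41 and -0.96.

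Of 8 genes of copper delivery tested, 2 were higher and none lower with si mH2A1.1, Memo1 at 0.62 (edgeR adjusted p = 0.0147) and Atox1, a copper chaperone, at 0.61 (edgeR adjusted p = 0.0134). Atp7a, the pump that loads copper into the lysyl oxidases in the secretory pathway, had 0.10 in si mH2A1.1 and 0.14 in si mH2A1.2, neither past the test. None of the 8 passed with si mH2A1.2 in edgeR or DESeq2 (1 at an unadjusted p under 0.05, Cox17, at a log2 fold change of -0.40), and between the knockdowns 3 were higher in si mH2A1.1, Slc31a2 at 0.72, Memo1 at 0.51 and Atox1 at 0.50. Of 12 further oxygenases that use 2-oxoglutarate none passed against si Ctrl in edgeR or DESeq2 (1 with either siRNA at an unadjusted p under 0.05), with medians of -0.13 in si mH2A1.1 and -0.01 in si mH2A1.2, and between the knockdowns 2 were higher and none lower in si mH2A1.1.

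Targets of TGF-beta, a growth factor that raises matrix genes, formed a further list. Of 12 tested, 4 were lower with si mH2A1.1 and none higher (median -0.74), Postn at -2.80, Tagln at -1.32, Skil at -0.58 and Itgb5 at -0.57. With si mH2A1.2 5 were higher and none lower (median 0.72), led by Ltbp2 at 1.99, Tagln at 1.54, Pmepa1 at 1.08 and Itgb5 at 0.72. Between the knockdowns 10 of the 12 were lower in si mH2A1.1 (median -1.38). Interferon-induced genes were higher with si mH2A1.1 for 18 of 19 tested and for none with si mH2A1.2 in edgeR (2 lower at an unadjusted p under 0.05, 1 lower in DESeq2). The lists share genes, Postn and Dpt among them.

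**Figure D5:**
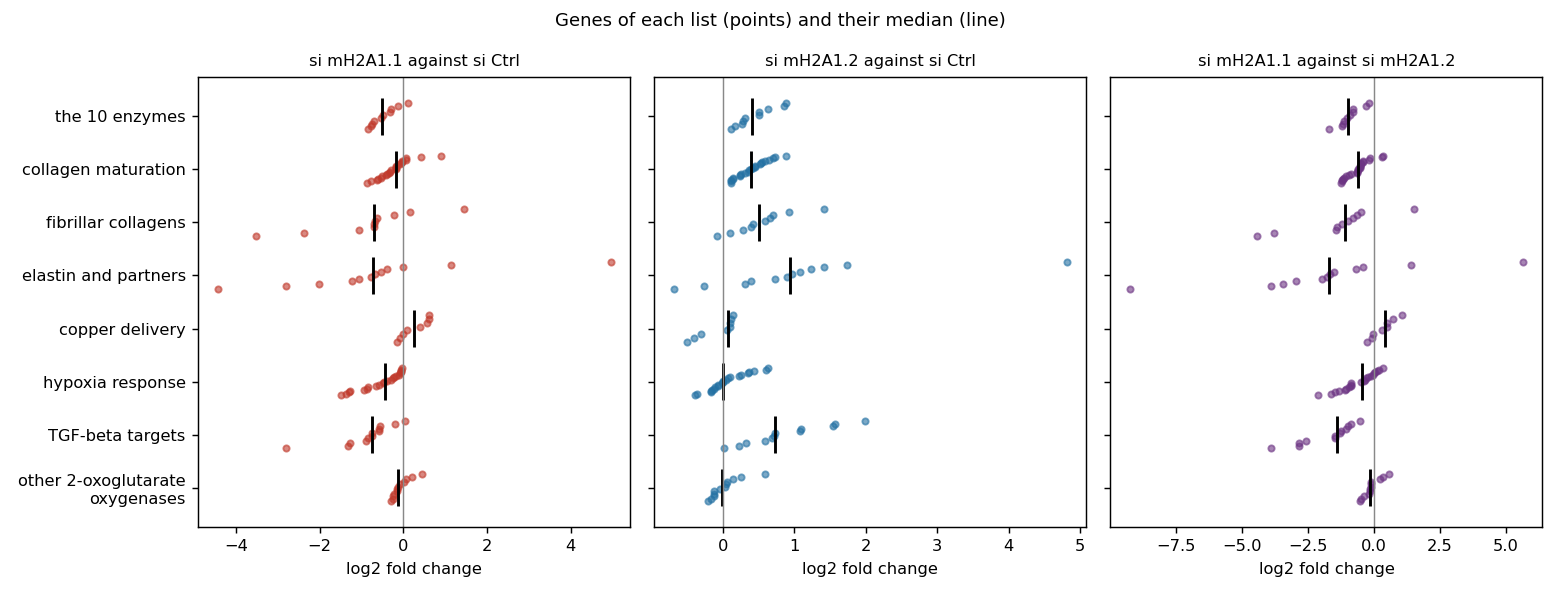
Log2 fold change of each tested gene of a list (points) and the median of the list (line) in the 3 comparisons, with the 10 enzymes on top, each panel on its own scale. The medians of collagen maturation run from -0.18 with si mH2A1.1 to 0.39 with si mH2A1.2, and those of copper delivery lie at 0.25 and 0.07.

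Across all 9 samples the genes most like each enzyme in log2 CPM, among 9778 tested genes with a mean of at least 10 CPM, were found by Pearson r. For Lox they were Cpq (0.99), Medag (0.99) and Gpc6 (0.98), for Loxl1 Fgf2, Itgb5 and Col8a2 (0.99 each), for Loxl3 Angpt4, Smarca2 and Kcnh2 (0.99 each) and for Loxl4 Cpq, Pcmtd1 and Fbln2 (0.98 each). Plod1 was most like Vcan (0.99), Fbn1 (0.99) and Atp6ap2 (0.98), matrix components in the case of Vcan and Fbn1. Edem3 and Aff4 were among the genes most like Plod2 (0.99 each), P4ha1 was most like Mllt10, Edem3 and Plod2 (0.99 each) and P4ha2 like Hectd4 (0.99), Ddi2 (0.98) and Plod2 (0.97). Plod3 was most like Pnpla6 (0.97), Colgalt1 (0.96) and Lifr (0.95), and Loxl2 had the lowest best match, Kat6a, at 0.93. These correlations are descriptions over 9 libraries in 3 groups and contain the group differences.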

How the data were processed

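C2C12 RNA was sequenced as single reads of 50 bp. Per the paper's methods and the labels the authors quantified genes of mm10 with Salmon and deposited estimated counts per gene (expected counts) and a second table of normalized signal, the counts divided by size factors (0.950 to 1.13), used here as a check only. Of 52780 genes 52762 had a GENCODE M21 name, and 18 had none. No column of another series was present (0).

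Expected counts were rounded and fitted over all 9 samples with edgeR 4.0.16 in R 4.3.3 (TMM, filterByExpr, quasi-likelihood test, Benjamini-Hochberg over 19545 genes), with a call at an adjusted p of at most 0.05. The stricter rule is an alternative applied to the edgeR fit. Its cutoffs are those of the paper's volcano plot, whereas the paper tested with DESeq2. Levels are TMM-scaled CPM. The code was tested on simulated data. The members and lists were chosen with earlier results of these data known. Named are all members, list genes with the largest calls against si Ctrl (at most 4 per siRNA, mean of at least 1 CPM), genes of collagen maturation and copper delivery (any of these could be named), up to 3 genes most like each member, and H2afy. Dcn, Eln, Tnxb and 5 low-oxygen genes were named after their values were seen. Same-numbered samples deviated together, most of all those of si mH2A1.2 and si Ctrl (r 0.196 to 0.331). The labels state no pairing, so the main fit used none, and the replicate number was a block in an alternative fit. Alternatives were DESeq2 1.42.0, its size factors, limma 3.58.1 voom, other filters and fits, and each sample left out. The sequence of Lox and a gene most like Plod2 are not reported here.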

Additional observations from a re-analysis of the deposited data

How the results depend on the processing

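The number of the 10 genes that differed from si Ctrl with si mH2A1.1 was 1 and depended on the processing. It was 6 with DESeq2, 4 without a filter on low counts, 2 with at least 10 counts in every sample, 3 with the newer form of the quasi-likelihood fit, 2 with limma-voom and 0 under the stricter rule, always lower, and 0 to 5 when 1 sample was left out. With si mH2A1.2 the number was 2, with 1 by limma-voom, 1 on the samples of the comparison alone, 0 under the stricter rule and 0 to 3 when 1 sample was left out. Between the knockdowns it was 8, with 5 under the stricter rule and 7 to 8 when 1 sample was left out. The cause of these differences was not tested, other than that the stricter rule asks for more. Over all tested genes, 2171, 460 and 4397 genes passed in the 3 comparisons, with 352 to 4065, 35 to 1096 and 1247 to 5674 under the other settings and 605 to 2928, 74 to 544 and 2251 to 4616 when 1 sample was left out. Lower calls over all genes with si mH2A1.1 against si Ctrl numbered 963 in the main fit and 1537 with DESeq2. They numbered 1106 without the filter and 960 with at least 10 counts in every sample. Directions turned for Loxl2 and P4ha2, in comparisons that did not pass. With 1 sample left out, the log2 fold change of Loxl2 with si mH2A1.1 against si Ctrl ran from -0.094 (without si mH2A1.1 replicate 2) to 0.36. Between the knockdowns Loxl2 ran from -0.40 to 0.048 (without si mH2A1.1 replicate 1), with 0.02 without si mH2A1.2 replicate 1. P4ha2 with si mH2A1.2 against si Ctrl ran from -0.14 (without si mH2A1.2 replicate 3) to 0.24.

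With the replicate number as a block, 5 genes were lower with si mH2A1.1 than in si Ctrl (Lox, Loxl1, Plod2, P4ha1 and P4ha2), 3 were higher with si mH2A1.2 and 9 were lower in si mH2A1.1 than in si mH2A1.2, Plod3 being added. Over all tested genes the block gave 4065 (1895 lower), 1005 (566 higher) and 5674 (2663 lower) calls in the same order. The labels give the same replicate numbers to all 3 groups and state no pairing. The sample codes run consecutively within each number, for both knockdowns alike. Same-numbered deviations of si mH2A1.1 had r of 0.0841 to 0.0976 with si Ctrl and 0.0917 to 0.116 with si mH2A1.2. Those of si mH2A1.2 with si Ctrl had r of 0.196 to 0.331. Every sample correlated best with its own number, a hint from the data and not the design. Depth limited none of the 10 genes.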
